A study of Caenorhabditis elegans with 2 samples.

Results

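The enzymes and carriers that handle fatty acids in Caenorhabditis elegans were examined for regions recovered with SMA-3, a receptor-regulated Smad transcription factor. The set held the 61 protein-coding genes, of 19973 in the annotation, whose symbols belong to the acs, lipl, elo, lbp or acdh families. It comprised 22 acs genes for acyl-CoA synthetases, 8 lipl genes for lysosomal-type lipases, 9 elo genes for fatty acid elongases, 9 lbp genes for lipid-binding proteins and 13 acdh genes for acyl-CoA dehydrogenases. The rule for members used the symbol and no measured value, although these families were picked with earlier results of these data known. Chromatin was immunoprecipitated with an antibody to GFP from whole hermaphrodites of strain CS152 at the L2 larval stage, 24 hours after release from starved, synchronised L1 larvae. All animals carried the sma-3(wk30) mutation and the transgene qcIs[gfp::sma-3+rol-6], in which rol-6 served as marker. The labels disagree on the tag, since the transgene name places GFP before SMA-3 and a note describes a C-terminal GFP-FLAG fusion. Neither the promoter nor the copy number of the transgene is known from the labels. There were 2 biological replicates of this 1 group, and no untagged immunoprecipitation was analysed here, so regions recovered irrespective of SMA-3 cannot be told apart from its targets.

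In C. elegans, SMA-3 is activated by receptors for the BMP-like ligand DBL-1 and, besides body size, the pathway is known to affect fat storage, with the epidermis as a site of action. Fatty acids released from stored fat by lipases are carried by lipid-binding proteins and made reactive by acyl-CoA synthetases. The resulting acyl-CoAs are either lengthened by elongases or shortened by beta-oxidation, whose first step is catalysed by acyl-CoA dehydrogenases in mitochondria. Much of this chemistry takes place in the intestine and the epidermis.

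The optimal list, which an irreproducible discovery rate procedure derived from the replicates, held 4205 peaks on genome build ce11. Each peak has a summit and a signal, the authors' value per region, which here only ranks regions within a list. These peaks rank 1 to 4205 by signal among the 30000 pooled regions, and their signal ran from 70.1 to 1762 with a median of 121. A promoter peak of a gene had its summit between 1000 bp upstream and 200 bp downstream of a start site. Promoter windows, start sites and gene bounds were those of protein-coding genes only. Non-coding RNA genes and pseudogenes near a summit were therefore not checked. Read depth is unknown, and percentages carry 95% exact (Clopper-Pearson) intervals that cover the counting of genes or peaks only.

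The summits with the highest signal in the promoters of each subfamily are shown first, as the strongest promoter recovery among them. Windows are shown for 4 subfamilies, since no lipl gene had a promoter peak. Each sequence is centred on the summit, from the RefSeq sequence of assembly WBcel235 (the ce11 build), written 5′ to 3′ on the strand of the gene. Capitals mark matches, on either strand, to 6 motifs: the Smad motifs GTCTG and GGCGC, the GATA factor motif TGATAA, the E-box CACGTG, the repeat GAGAGA and the nuclear receptor motif AGGTCA.
lbp-9, chrV:2068161-2068311, plus strand: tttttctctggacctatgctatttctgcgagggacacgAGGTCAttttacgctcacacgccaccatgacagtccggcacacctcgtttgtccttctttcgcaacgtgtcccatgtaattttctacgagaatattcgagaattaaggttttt
elo-1, chrIV:9526077-9526227, plus strand: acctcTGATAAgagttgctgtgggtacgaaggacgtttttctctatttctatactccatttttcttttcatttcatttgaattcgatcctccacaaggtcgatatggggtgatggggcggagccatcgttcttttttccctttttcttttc
acs-2, chrV:15566661-15566811, plus strand: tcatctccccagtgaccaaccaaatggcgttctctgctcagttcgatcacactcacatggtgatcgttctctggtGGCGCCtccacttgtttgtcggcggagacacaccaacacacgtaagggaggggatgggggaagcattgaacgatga
acdh-13, chrIV:8498829-8498979, minus strand: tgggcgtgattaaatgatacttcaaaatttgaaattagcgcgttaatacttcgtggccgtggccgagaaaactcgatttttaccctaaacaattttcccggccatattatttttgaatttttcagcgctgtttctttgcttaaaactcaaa

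A further 4 windows are shown because they were the member promoter windows that held GTCTG or its reverse complement CAGAC, a choice made after the matches were seen.
lbp-4, chrV:7820378-7820528, plus strand: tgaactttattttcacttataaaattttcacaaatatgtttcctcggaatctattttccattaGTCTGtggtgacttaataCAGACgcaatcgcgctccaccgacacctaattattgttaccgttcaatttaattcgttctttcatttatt
acs-17, chrX:5942199-5942349, minus strand: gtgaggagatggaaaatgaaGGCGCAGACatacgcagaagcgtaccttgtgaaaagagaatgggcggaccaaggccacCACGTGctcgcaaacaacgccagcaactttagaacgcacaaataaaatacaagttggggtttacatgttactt
acdh-11, chrIII:10566062-10566212, plus strand: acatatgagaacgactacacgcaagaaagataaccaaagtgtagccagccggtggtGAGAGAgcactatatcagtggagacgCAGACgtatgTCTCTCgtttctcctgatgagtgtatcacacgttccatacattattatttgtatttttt
elo-6, chrIV:5388797-5388947, minus strand: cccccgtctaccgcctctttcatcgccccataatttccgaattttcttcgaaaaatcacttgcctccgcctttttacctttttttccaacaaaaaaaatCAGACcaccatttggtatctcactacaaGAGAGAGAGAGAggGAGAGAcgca

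Promoter peaks were found at 12 of the 61 members, 19.7% (interval 10.6 to 31.8%), compared with 14.3% of all protein-coding genes. By subfamily they comprised 4 of 22 acs genes (acs-2, acs-11, acs-13 and acs-17), 2 of 9 elo genes (elo-1 and elo-6), 3 of 9 lbp genes (lbp-3, lbp-4 and lbp-9), 3 of 13 acdh genes (acdh-1, acdh-11 and acdh-13) and 0 of 8 lipl genes, for which the interval reached 36.9%. The percentages were 18.2% for acs, 22.2% for elo, 33.3% for lbp and 23.1% for acdh. The share of all genes lay within the interval of every subfamily and of the whole set. The difference between 19.7% and 14.3% was therefore within the members' counting error.

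Low peaks supplied most of that count. The median signal of a member's promoter peak was 88.2, with a range of 74.8 to 177, whereas the median over all 2863 genes with a promoter peak was 137. Of the 12 peaks, 3 were among the 2102 highest of the optimal list, those of lbp-9, elo-1 and acs-2, compared with 1273 of all 2357 promoter peaks. With peaks limited to these 2102, the members' share was 4.92%, below the 8.36% of all genes. When a peak also had to overlap one of the 4205 highest regions of each replicate, the share was 11.5% for members and 12% for all genes.

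**Figure D1:**
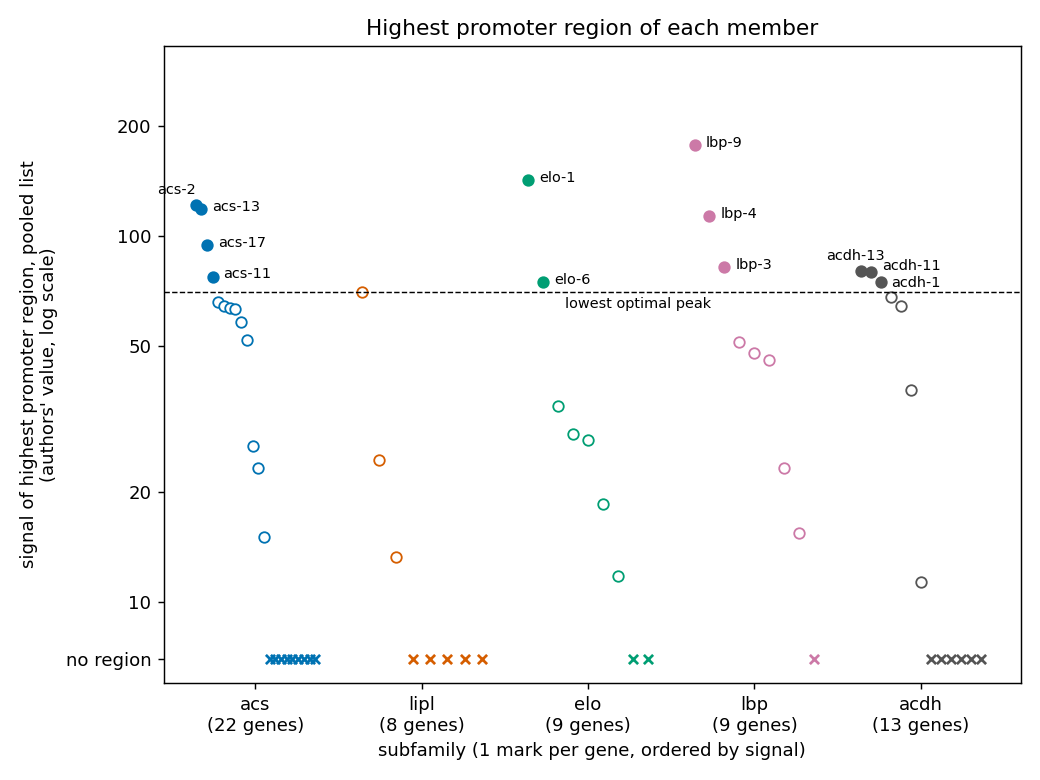
Signal of the highest promoter region of each of the 61 members in the pooled list, on a log axis, by subfamily. Filled marks are the 12 members with an optimal promoter peak, open marks have a lower-ranked region, crosses have none, and the dashed line is the lowest optimal signal (70.1); lbp-9 stands highest at 177.

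**Figure D2:**
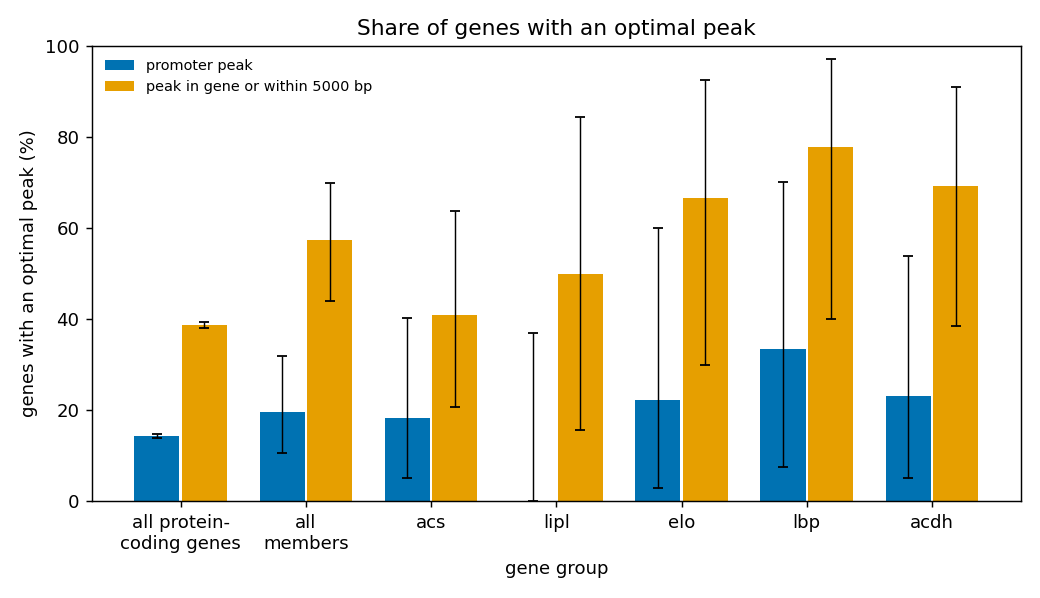
Percentage of genes with an optimal promoter peak (blue) and with an optimal peak in the gene or within 5000 bp (orange), for all protein-coding genes, all members and each subfamily. Error bars are 95% exact intervals that take genes as independent. The 14.3% of all genes lies within the promoter interval of each subfamily and of all members. The 38.6% lies within the wider intervals, except those of lbp, which starts at 40%, and of all members, which starts at 44.1%. Of the lbp genes, lbp-1, lbp-2 and lbp-3 were counted through the same peak.

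Among the acyl-CoA synthetases, acs-2 had the highest promoter peak. This gene encodes a mitochondrial-type synthetase whose expression rises on fasting under the nuclear receptor NHR-49. Its peak (V, 15566536 to 15566935) had a signal of 121 and ranked 2101 in the pooled list, 2815 in replicate 1 and 1991 in replicate 2. The summit lay 658 bp upstream of the start site, the farthest of the 12. The acs-13 peak (I, 516516 to 516915) was close in signal, 118, and ranked 2251 and 2383 in replicates 1 and 2, with its summit 319 bp upstream of a start site and within an intron of the longer acs-13 transcript. At acs-17 (X, 5942074 to 5942473) the signal was 94.1 and the ranks 3469 and 2947. Its summit lay 215 bp upstream of a start site but inside the annotated gene, in an intron. The acs-11 promoter peak (II, 4741423 to 4741822), 514 bp upstream, had a signal of 77.4 and ranks of 3684 and 3620. All 4 acs promoter peaks were thus among the 4205 highest regions of each replicate.

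The gene acs-11 also had the most peaks of any member, 7 at distances up to 5000 bp. The highest, with a signal of 247, ranked 494 and 703 in the replicates and lay 181 bp past the 3′ end of the gene. A further 4 peaks lay 1072 to 3571 bp past that end, with signals from 77.7 to 111, and 2 of these 4 overlapped the same region in each replicate list. The remaining peak outside the window, with a signal of 188, lay 1950 bp upstream in the window of the neighbouring gene eas-1. Signal around acs-11 was therefore higher downstream of the gene than in its promoter.

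Of the elongases, elo-1 had the clearest promoter peak. ELO-1 lengthens polyunsaturated fatty acids on the way to those with a longer chain. The peak (IV, 9525952 to 9526351) lay 214 bp upstream, had a signal of 142 and ranked 1745 and 1777 in replicates 1 and 2. That of elo-6 (IV, 5388672 to 5389071), a gene needed to make branched-chain fatty acids, lay 313 bp upstream with a signal of 74.8. It ranked 5287 and 5126, so it was the only member promoter peak outside the 4205 highest of both replicates. The partner elongase of branched-chain synthesis, elo-5, had a pooled promoter region ranked 10958 and no peak within 5000 bp. The palmitate elongase gene elo-2 had no promoter peak, and its pooled promoter region ranked 17161.

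The lipid-binding proteins included the highest peak in a member's own promoter window. The lbp-9 peak (V, 2068036 to 2068435), 213 bp upstream, had a signal of 177 and ranked 1106 in replicate 1 and 1335 in replicate 2. At lbp-4 (V, 7820253 to 7820652) the summit lay 125 bp upstream, the signal was 113 and the ranks were 2145 and 2621. The lbp-3 peak (X, 3256769 to 3257168), 403 bp upstream, had a signal of 82.2 and ranks of 3131 and 4876. The genes lbp-1, lbp-2 and lbp-3, which encode the extracellular type of nematode fatty acid-binding protein, lie near each other on X. The lbp-3 summit lay 2173 bp upstream of lbp-1 and 3641 bp upstream of lbp-2, and no other optimal peak lay within 5000 bp of those genes. LBP-8, a carrier of lipid signals from lysosomes, had its nearest peak 1409 bp past its 3′ end, in the window of the neighbouring gene sptl-3.

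Promoter peaks of the acyl-CoA dehydrogenases were low. The gene acdh-13 (IV, 8498704 to 8499103) had a signal of 80.3, with the summit 81 bp upstream, and acdh-11 (III, 10565937 to 10566336) a signal of 79.8, with the summit 121 bp upstream. ACDH-11 is known to act in the response of fatty acid desaturation to heat. The peak of acdh-1 (I, 6497319 to 6497718), the dehydrogenase of the propionate shunt and a gene that responds strongly to diet, had a signal of 74.8, and its summit lay in a coding exon 83 bp past the start site. It was the only one of the 12 summits not upstream. The replicates differed at this subfamily. The acdh-13 region ranked 6486 and 2978 in replicates 1 and 2, that of acdh-1 6866 and 3151, and that of acdh-11 2891 and 4324, so none was among the 4205 highest of both.

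Over the 12 promoter peaks, 7 were among the 4205 highest regions of each replicate, compared with 1938 of 2357 promoter peaks in all (82.2%). Among the lower-ranked promoter peaks, beyond rank 2102, this held for 4 of 9 members' peaks and 668 of 1084 in all (61.6%). The optimal list was itself derived from the replicates, so the overlap is partly built in. From replicate 1 alone 13 members would have had a promoter peak and from replicate 2 alone 10, including acs-12 in each, although its pooled region ranked 4746.

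**Figure D3:**
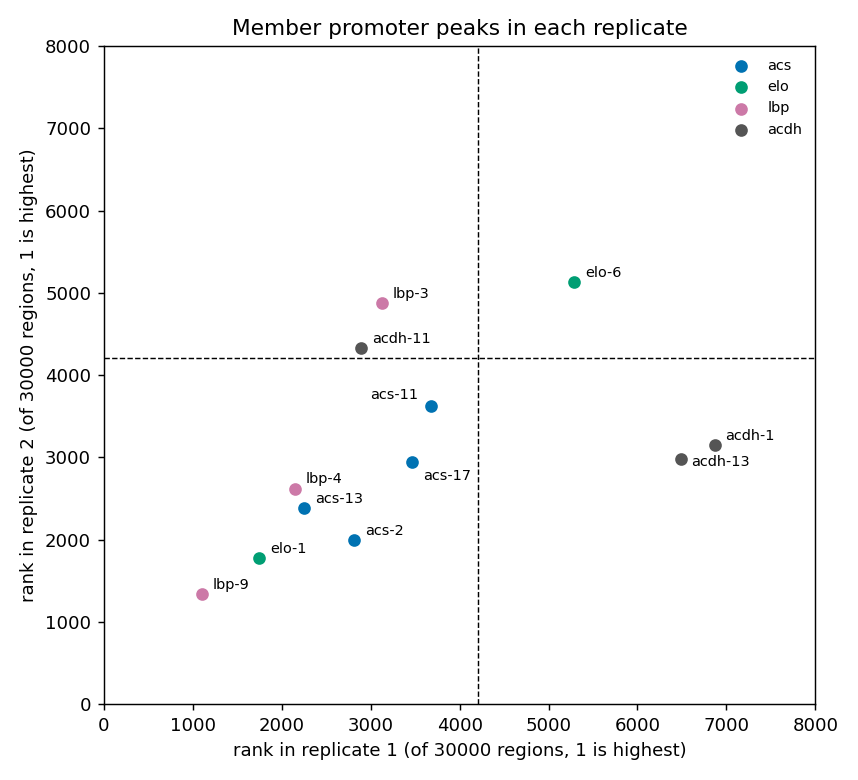
Rank of the highest region overlapping each of the 12 member promoter peaks in the list of replicate 1 (horizontal axis) and replicate 2 (vertical axis), where 1 is the highest of 30000; dashed lines mark rank 4205. The 7 peaks at lower left, led by lbp-9 at 1106 and 1335, pass in both replicates, and acdh-1 and acdh-13 at right pass in replicate 2.

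Member promoter peaks were mostly not shared with other genes. In 11 of 12 the summit lay in the window of no other gene, and the exception was acdh-13, whose window overlaps that of mesp-1. Over all promoter peaks, 28.6% lay in windows of several genes. In all 12 the member's own start site was the nearest. Counting each summit for the nearest start site only left the members' share at 19.7% and lowered that of all genes from 14.3% to 10.9%. The median position was -214.5 bp from the start site for members and -199 bp for all promoter peaks, and the median width of the members' peaks, 400 bp, equalled that of the optimal list.

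Many further members had a region in the pooled list that ranked below the optimal peaks. In all, 38 of 61 members (62.3%) had a promoter region in the pooled list, compared with 41.5% of all genes. The pooled list is mostly background, so such a region is not a call. Beside the 12 optimal ones, 14 members (23%) had their highest promoter region below the optimal list but within rank 10000, compared with 11% of all genes, and 12 (19.7%) beyond rank 10000, compared with 16.2%. The remaining 23 (37.7%) had none, compared with 58.5%. Promoter regions occurred in the lists of both replicates for 33 members (54.1%) and for 34.2% of all genes. Whether these lists include regions that open promoters give without SMA-3 was not tested.

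The lipase gene lipl-2 was the member closest below the optimal list, with a promoter region of signal 70.1 at rank 4210, and ranks of 4266 and 5187 in the replicates. Next came acdh-9 (signal 68, rank 4360), acs-14 (66.1, rank 4499) and the acetyl-CoA synthetase gene acs-19 (64.5, rank 4622). They were followed by acdh-7 at 64.2, by acs-1, which activates branched-chain fatty acids, at 63.6, and by acs-12 at 63. Just inside the list stood acdh-1 and elo-6, at 74.8 each. The other members outside the list but within rank 10000 were acs-7, acs-22, lbp-5, lbp-6, lbp-7, acdh-12 and elo-9. Ranked beyond 10000 were acs-5, acs-20, acs-21, elo-2, elo-3, elo-5, elo-7, lbp-1, lbp-8, lipl-4, lipl-5 and acdh-10.

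With summits inside the gene or up to 5000 bp from it counted, the tally came to 35 of 61 members. This was 57.4%, with an interval from 44.1 to 70%, beside 38.6% of all genes, which lay below that interval. By subfamily these were 9 of 22 acs, 4 of 8 lipl, 6 of 9 elo, 7 of 9 lbp and 9 of 13 acdh genes. The intervals take genes as independent, although 5 peaks were shared by several members, among them that of lbp-3 with lbp-1 and lbp-2. Member genes had a median length of 2339 bp and all genes of 2027 bp, both less than the 5000 bp added on each side. Median length was 784 bp for lbp, with a share of 77.8%, and 3148.5 bp for acs, with a share of 40.9%. Whether gene length bears on these shares was not tested. Limited to the 2102 highest peaks, the shares were 27.9% and 24.5%. Many of these summits lay in promoter windows of neighbours, whereas promoter peaks lay in the member's own window by definition. The same split was not computed for peaks near all genes. The 35 genes had 59 distinct peaks, of which 12 lay in a member's promoter window, 22 only in windows of other genes and 25 in no promoter window. Each summit counts as a peak here, although some share a region or overlap, as at acdh-2, acdh-1, acs-11 and acs-19.

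**Figure D4:**
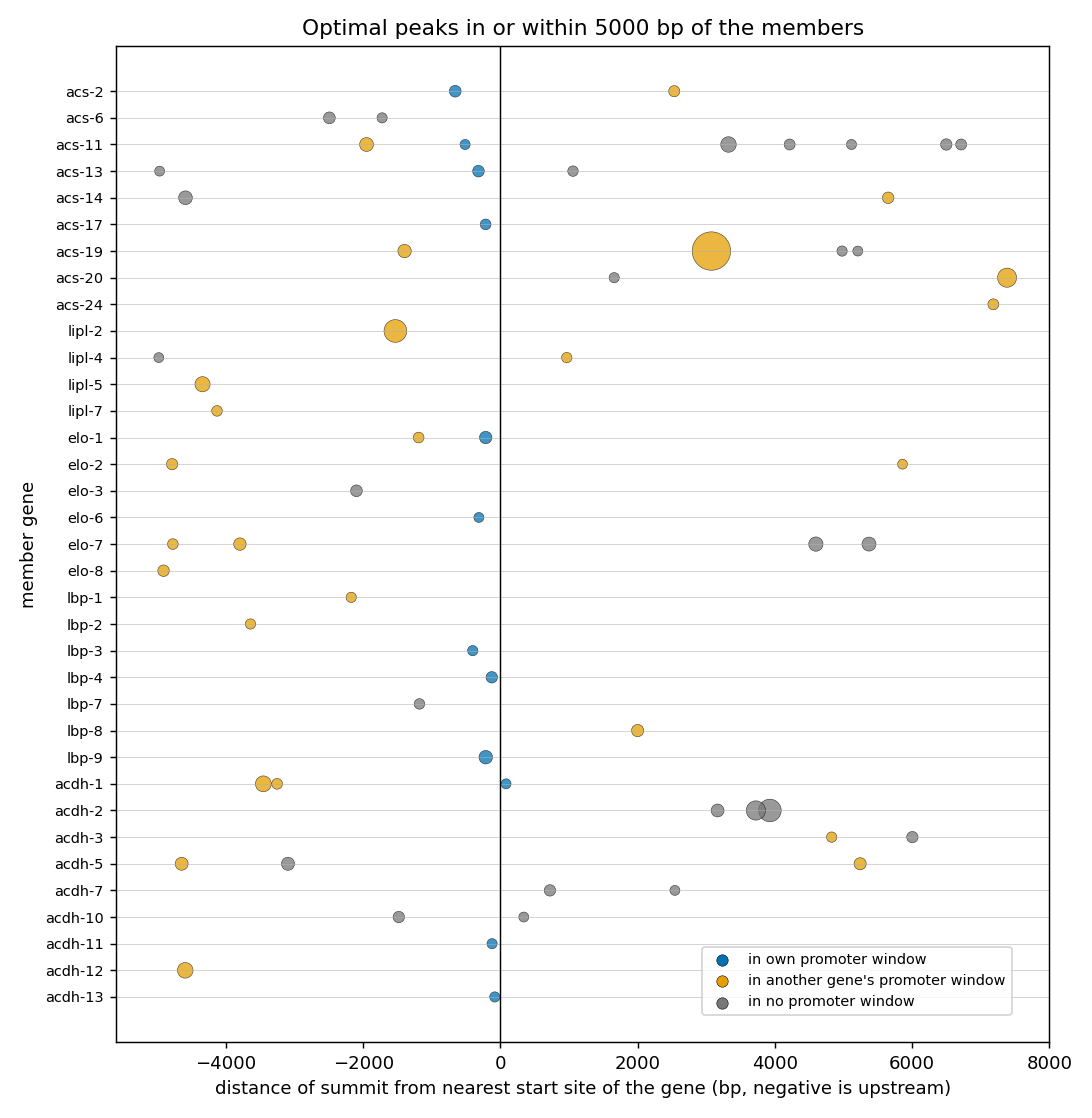
Distance in bp of each optimal summit from the nearest start site of the member, negative upstream, for the 35 members with a peak in the gene or within 5000 bp; mark area grows with signal. Blue summits lie in the member's own promoter window (12 genes), orange ones in another gene's window and grey ones in none; the largest mark, at acs-19, is the rpl-3 peak.

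The highest peaks near members illustrate this. The highest peak of the optimal list, with a signal of 1762 and rank 1 in each replicate, lay 466 bp past the 3′ end of acs-19, in the promoter window of the ribosomal protein gene rpl-3. At lipl-2 a peak with a signal of 585, ranked 70 and 72 in the replicates, lay 1530 bp upstream, but 330 bp from the start site of ztf-7 and in its window. At acs-20, which encodes a fatty acid transport protein needed for the cuticle barrier, a peak of signal 399 lay 798 bp past the 3′ end in the windows of dpm-3 and rps-23. Past the 3′ end of acdh-2, by 1012 and 1216 bp, lay a pair of summits with signals of 409 and 581 in the same region (II, 5543411 to 5543962). They lay outside protein-coding genes and their promoter windows, and non-coding genes there were not checked. The nearest protein-coding start site was that of the insulin-like gene ins-13, 1098 bp or more away.

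Of the 23 members with such a peak but no promoter peak, 6 had a peak whose nearest start site was their own. These were acs-6 with a summit 1723 bp upstream (signal 79.8), elo-3 at 2097 bp upstream (121), lbp-7 at 1179 bp upstream (89.5) and, within the gene, acs-20 in an intron (80.5), acdh-7 in an intron (112) and acdh-10 in a coding exon (74.2). In another 10 every peak lay in a window of other genes: acs-24, elo-2, elo-8, lbp-1, lbp-2, lbp-8, lipl-2, lipl-5, lipl-7 and acdh-12. The remaining 7 were acs-14, acs-19, elo-7, lipl-4, acdh-2, acdh-3 and acdh-5.

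No lipase had a peak nearest to its own start site. The lysosomal lipase gene lipl-4, known for its effect on lifespan, had a peak of signal 84.7 within the gene, 453 bp from the start site of twk-10, and lipl-5 a peak of signal 234 at 4340 bp upstream, in the window of ZK6.8. At lipl-7 the peak (signal 90.6) lay 4129 bp upstream, in the window of F01G10.10. The fasting-induced genes lipl-1 and lipl-3 had neither a peak within 5000 bp nor a pooled promoter region, and the same held for lipl-6 and lipl-8. Chromosome V carries 7 of the 8 lipl genes, and of all genes on V 10.2% had a promoter peak, the lowest of the 6 chromosomes.

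No peak within 5000 bp was found for 26 members, and 15 of these had no pooled promoter region either. Such a peak was present at 57.4% of members and 38.6% of all genes, so its absence was less common among members. The share of all genes lacking both was not computed. Beside the 4 lipases the 15 were acs-3, acs-4, acs-9, acs-10, acs-15, acs-16, acs-18, elo-4, acdh-4, acdh-6 and acdh-8. The other 11 were acs-1, acs-5, acs-7, acs-12, acs-21, acs-22, elo-5, elo-9, lbp-5, lbp-6 and acdh-9.

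The windows printed above differ in which motifs they hold. GTCTG was present in 4 of the 12 member summit windows (33.3%, interval 9.92 to 65.1%), compared with 22.7% of all 2357 promoter summits and 16.4% of the 6000 lowest-ranked regions. At lbp-4 it occurred on both strands. In acs-17 a GGCGC overlapped a CAGAC by a single base, as GGCGCAGAC, and CACGTG occurred in the same window. GGCGC was in 2 of 12 windows (16.7%), those of acs-2, where GGCGCC matches on both strands, and acs-17, compared with 27.5% and 9.53%. TGATAA was in 3 (25%), those of elo-1, lbp-3 and acs-13, compared with 15.5% and 14.2%.

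AGGTCA was in the windows of lbp-9 and acs-13 (16.7%, compared with 5.43% of all promoter summits and 3.78% of the lowest-ranked regions). GAGAGA was in those of acdh-11 and elo-6 (16.7%, compared with 29.6% and 10.1%), and CACGTG in that of acs-17 only (8.33%, compared with 8.02% and 3.15%). The windows of acs-11, acdh-1 and acdh-13 held none of the 6. The members' interval includes the share of all promoter summits for each motif. Median GC content was 41.4% in member windows and 43% in all promoter windows.

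Of a list of 49 genes that work beside the members, 18 had a promoter peak (36.7%, beside 14.3% of all genes). The list was made with earlier results of these data known, so nothing is read from this share. Mitochondrial import and oxidation had 6 of 20, peroxisomal beta-oxidation 3 of 10, neutral lipase and lipid droplet genes 3 of 6, transcriptional regulators 6 of 10 and the other enzymes of the elongation complex (let-767, art-1 and hpo-8) 0 of 3. Several of these peaks stood above every promoter peak of the members. The enoyl-CoA hydratase family gene ech-5 had a signal of 374 (ranks 355 and 196 in the replicates), and cpt-2, which encodes the inner-membrane carnitine palmitoyltransferase, 216 (ranks 864 and 774). At hach-1, a gene of the breakdown of propionate and valine, the signal was 242, with the start site of nmad-1 nearer to the summit.

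Of the regulators, nhr-68, which activates the propionate shunt including acdh-1, had a signal of 628, with the start site of H12C20.7 nearer at 43 bp. The fasting regulators nhr-49 and hlh-30 had signals of 170 and 165, and nhr-66, a partner of NHR-49, had 121. The perilipin gene plin-1 had 118. The triglyceride lipase gene atgl-1, the main enzyme of fat release, had no promoter peak and 3 peaks within 5000 bp.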

How the data were processed

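The 2 samples, replicates 1 and 2 of 1 group, each had a deposited list of 30000 regions on ce11, called by the authors from that replicate and a shared control, and the series had a pooled and an optimal list. Per the file listings the optimal list came from the others by an irreproducible discovery rate procedure. The deposited signal of each region is the authors' value, whose scaling, like the aligner, peak caller and read depth, is not stated in the labels or files used here. Lists on build ce10 were not used, since no coordinate was converted.

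Protein-coding genes and their 29314 start sites came from Ensembl release 115 (WBcel235), and genes of other types were left out. Every region lay within the chromosome lengths of that assembly. Ranks order regions by signal, and a peak's rank in a replicate is that of the highest region it overlaps by at least 1 bp. No statistical test was run, since there is 1 group. Members and gene lists were chosen with earlier results of these data known. Every member with an optimal promoter peak is named with its values, of the pathway list at most 8 by signal, and atgl-1 was chosen after its values were seen. Window assignment was tested on simulated data. Intervals were computed with scipy 1.17.1 and figures drawn with matplotlib 3.10.9, under Python 3.11.15 with numpy 2.4.6 and pandas 2.3.3.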

Additional observations from a re-analysis of the deposited data

How the results depend on the processing

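Of 74 alternative values computed, 61 stayed within 1.5 times the reported count or within the interval of the reported value, and 13 did not. The 13 concern promoter peak counts and the count within 5000 bp. With only the 2102 highest optimal peaks, 3 members had a promoter peak in place of 12 (1 acs, 1 elo, 1 lbp and 0 acdh), and 17 in place of 35 had a peak within 5000 bp. With peaks required among the 4205 highest of both replicates, 7 members had one, with elo at 1 and acdh at 0. With a window of 500 bp upstream to 100 bp downstream, 2 acs genes had one in place of 4, since acs-2 and acs-11 have more distant summits. With 2000 bp upstream, 1 lipl gene did, lipl-2, through the ztf-7 peak. Using each replicate alone, the count over all members was 10 to 13, over acs 5 to 6, over elo 1 in each case, over lbp 2 to 3 and over acdh 2 to 3, while lipl stayed at 0. The count within 5000 bp was 33 in each case and that of pooled promoter regions 39 to 42. Counting each summit for the nearest start site only left 12 members, and lowered the share of all genes to 10.9%. Counts in subfamilies are small, so a change by 1 gene can exceed 1.5 times. With 2 replicates, no untagged control and unknown depth, low peaks outside the 4205 highest of at least 1 replicate are the least certain. These were the promoter peaks of acdh-1, acdh-11, acdh-13, elo-6 and lbp-3.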
